A study of Danio rerio with 6 samples.

Results

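The 10 zebrafish genes described here encode inflammatory messengers, antimicrobial peptides and inhibitors of the signals that switch them on. They are il1b, tnfa, cxcl8a, cxcl18b, saa, leap2, hamp, nfkbiaa, socs3a and socs3b, a list given by symbol. All 10 were found among the 32520 gene IDs of the count tables, 7 of them under their own symbol. RNA came from whole larvae at 5 days after fertilisation, with no treatment other than age in the labels. The mutant group is labelled pdcd7/cx20, with pd1215 as the allele name (3 libraries), and the other group is its wild-type siblings (3 libraries). The PDCD7 protein belongs to the minor spliceosome, the machinery for a small class of introns. The labels state neither the zygosity of the mutants nor what cx20 stands for, and all 6 libraries are in batch 1. They give 40 larvae and 3 replicates without saying whether 40 is the number per replicate. Nothing in them says that replicates came from separate clutches, so p-values measure only the spread between these libraries, which may be technical.

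In vertebrates, microbes and tissue damage are sensed by Toll-like and related receptors, which release the transcription factor NF-kB from its inhibitor. NF-kB turns on interleukin 1 beta, tumour necrosis factor and the chemokines that draw neutrophils to a site. Cytokines of the interleukin 6 family then act through JAK kinases and STAT3, and the liver answers with acute phase proteins such as serum amyloid A and with hepcidin. IkB alpha and SOCS3 are made in answer to the same signals and damp them.

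Library totals lay between 75122088 and 87110177 counts, and the first principal component of log2 CPM held 86.0% of the variance and separated the genotypes. The transcript of pdcd7, the gene for which the line is named, was present in mutants at 21.8, 19.6 and 20.5 CPM, against 14.8, 15 and 15.3 CPM in wild type. Its log2 change was 0.46 ± 0.05 (SE, adjusted p = 7.92e-08 in edgeR), and counts per gene do not show a lesion. CPM here is a gene's count relative to the library total, with totals scaled by TMM factors.

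Of the 10 genes, 9 passed the filter on low counts. Of these 9, 7 were higher in mutants, 1 (hamp) was lower and 1 (cxcl8a) was not called, by edgeR's quasi-likelihood test at an adjusted p under 0.05. The same test called 34.7% of all 24248 tested genes higher and 34.2% lower, 68.9% in all, so being called is common in this comparison. The groups did not overlap for 7 genes that were higher and 1 that was lower, where 36.4% and 35.8% of all tested genes behaved that way. The median log2 change of the 9 was 0.50, beside 0.01 for all tested genes, whose quartiles were -0.28 and 0.30. edgeR's test against a 1.5-fold change called cxcl18b, saa and leap2 higher, and none of the 9 lower, at an unadjusted p under 0.05 as well. It called 5.77% of all tested genes higher and 7.27% lower.

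**Figure D1:**
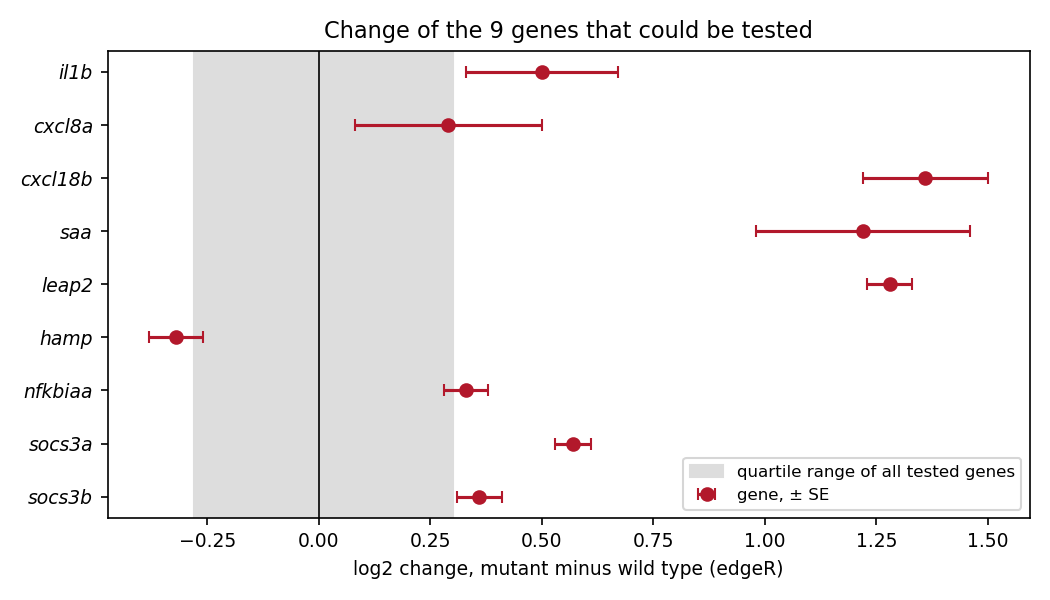
Log2 change of the 9 tested genes, mutant minus wild type, as points with bars of 1 SE, over a grey band that spans the quartiles of all tested genes (-0.28 to 0.30). cxcl18b, leap2 and saa stand at 1.36, 1.28 and 1.22, and hamp, at -0.32, is the gene below 0.

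Of the 2 chemokine genes among the 10, cxcl18b was the one that passed the test (ENSDARG00000075045, GRCz11 chromosome 1, 49222164 to 49225890, minus strand). In zebrafish it encodes a neutrophil attractant. It measured 3.61, 4.03 and 2.68 CPM in mutants, against 1.38, 1.26 and 1.35 CPM in wild type. Every mutant library lay above every wild-type library, and the mutant libraries were spread more widely, with replicate 3 the lowest. The mean was 3.44 ± 0.689 CPM in mutants and 1.33 ± 0.0655 CPM in wild type (SD, n = 3 each), a 2.58-fold rise. The log2 change was 1.36 ± 0.14 (SE, adjusted p = 6.67e-07 in edgeR), and the adjusted p was 1.12e-04 in edgeR's test against a 1.5-fold change.

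The second chemokine, cxcl8a (ENSDARG00000104795, chromosome 1, 14253118 to 14254166, plus strand), is a zebrafish counterpart of interleukin 8, which recruits neutrophils. It measured 1.18, 1.35 and 0.723 CPM in mutants, against 0.820, 1.01 and 0.810 CPM in wild type. Mutant replicates 1 and 2 were above all wild-type libraries, and mutant replicate 3 was below all of them, so the groups overlap. The log2 change of 0.29 ± 0.21 (SE, adjusted p = 0.229 in edgeR) did not pass the threshold, and without mutant replicate 3 it was 0.53 (adjusted p = 0.0131 in edgeR). The counts behind the extremes were 111 in mutant replicate 2 and 65 in mutant replicate 3, with exact Poisson 95% intervals of 91.3 to 134 and 50.2 to 82.8. These intervals cover counting error only.

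The cytokine gene il1b (ENSDARG00000098700, chromosome 10, 44955106 to 44964776, plus strand) encodes interleukin 1 beta, which is released after inflammasome caspases have cut its precursor. It measured 1.28, 0.988 and 1.00 CPM in mutants, against 0.697, 0.872 and 0.734 CPM in wild type. The groups did not overlap, with mutant replicate 1 the highest and the nearest libraries of both groups close together. The mean was 1.09 ± 0.162 CPM in mutants and 0.768 ± 0.0920 CPM in wild type, a 1.42-fold rise on counts of 81 to 99 and 51 to 68. The log2 change was 0.50 ± 0.17 (SE, adjusted p = 0.0139 in edgeR). The call was lost without mutant replicate 1 (log2 0.37, adjusted p = 0.0798 in edgeR) and without wild type replicate 1 (log2 0.43, adjusted p = 0.0555 in edgeR).

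For tnfa (ENSDARG00000009511, chromosome 19, 27019432 to 27024019, plus strand), which encodes tumour necrosis factor, the counts were 0, 2 and 0 in mutants, against 1, 2 and 3 in wild type. No library had more than the 3 counts that a count of 0 allows, which correspond to 0.0334 to 0.0410 CPM across libraries. The gene did not pass the filter, and a difference was not detectable at this depth.

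Serum amyloid A is an acute phase protein that the liver, and in fish also the gut, makes in response to microbes. Its gene, saa (ENSDARG00000045999, chromosome 7, 12950507 to 12956434, plus strand), carries the symbol SAA2 in the symbol table, and 7 of its 10 nearest named neighbours are also neighbours of saa in RefSeq. It measured 0.708, 0.988 and 0.567 CPM in mutants, against 0.328, 0.321 and 0.316 CPM in wild type. All mutant libraries were above the wild-type libraries, which lay close together, while the mutant libraries differed among themselves. The mean was 0.755 ± 0.214 CPM in mutants and 0.322 ± 0.00601 CPM in wild type, 2.35-fold higher in mutants, with a log2 change of 1.22 ± 0.24 (SE, adjusted p = 1.97e-04 in edgeR). The adjusted p in edgeR's test against a 1.5-fold change was 0.0170. The gene lies 0.728 Mb from pdcd7. Of the 26 other tested genes within 1 Mb of saa, 5 were higher and 11 lower in mutants (61.5% called, beside 68.9% of all tested genes). What part a shared chromosome segment has in the difference was not tested.

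The 2 antimicrobial peptide genes moved in opposite directions. The first, leap2 (ENSDARG00000104654, chromosome 7, 51752239 to 51757085, minus strand), encodes a cationic peptide of liver and gut that in mammals also blocks the ghrelin receptor. It measured 23.1, 24.7 and 25.3 CPM in mutants, against 10.1, 9.35 and 10.8 CPM in wild type. The libraries of each group lay close together and the groups were far apart. The mean was 24.4 ± 1.13 CPM in mutants and 10.1 ± 0.717 CPM in wild type, a 2.42-fold rise. The log2 change was 1.28 ± 0.05 (SE, adjusted p = 7.38e-13 in edgeR), with an adjusted p of 9.25e-10 in edgeR's test against a 1.5-fold change. Though on the same chromosome as pdcd7, leap2 lies 38.015 Mb from it.

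The other peptide gene, hamp (ENSDARG00000102175, chromosome 16, 50289916 to 50292583, plus strand), encodes hepcidin, the liver hormone that removes the iron exporter ferroportin from cells. It measured 12, 13.2 and 14.1 CPM in mutants, against 16.5, 15.8 and 16.7 CPM in wild type. Every mutant library was below every wild-type library. The mean was 13.1 ± 1.07 CPM in mutants and 16.3 ± 0.436 CPM in wild type, and the log2 change was -0.32 ± 0.06 (SE, adjusted p = 6.46e-05 in edgeR). Within a library, which needs no scaling, the ratio of leap2 to hamp, which is not corrected for length and is read only between groups, was 1.87 ± 0.0687 in mutants and 0.617 ± 0.0282 in wild type. That ratio was above all wild-type values in each of the 3 mutant libraries (two-sided exact permutation p = 0.1, the smallest that 3 against 3 allows). Because leap2 was higher and hamp lower in every mutant library, this separation and its p-value were fixed by those values. They are not a further test.

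**Figure D2:**
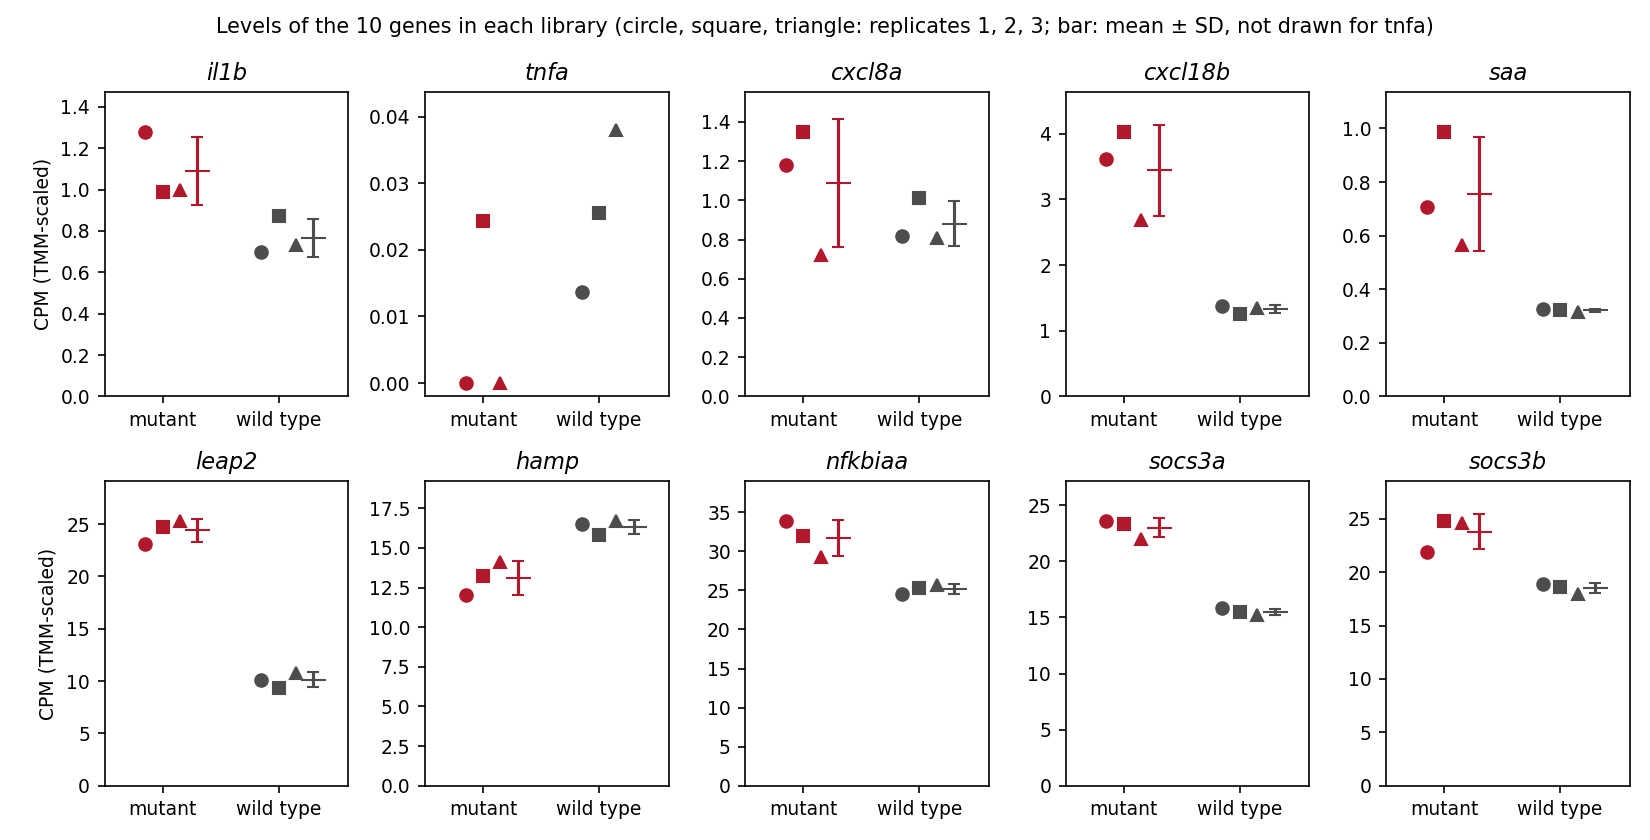
CPM of each of the 10 genes in the mutant libraries (left, red) and the wild-type libraries (right, grey), with replicate numbers as symbols and the mean ± SD as a bar beside them, each panel on its own axis. Mutant replicate 3 is the lowest mutant library for cxcl8a, cxcl18b, saa, nfkbiaa and socs3a, and the highest for leap2 and hamp.

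The 3 inhibitor genes were all higher in mutants, by less than 1.5-fold. IkB alpha, which holds NF-kB in the cytoplasm and whose gene NF-kB itself induces, is encoded by nfkbiaa (ENSDARG00000005481, chromosome 20, 16881883 to 16884737, plus strand). It measured 33.9, 32.0 and 29.3 CPM in mutants, against 24.5, 25.3 and 25.7 CPM in wild type. The groups did not overlap. The mean was 31.7 ± 2.28 CPM in mutants and 25.2 ± 0.591 CPM in wild type (log2 change 0.33 ± 0.05 SE, adjusted p = 8.88e-06 in edgeR). Its paralogue nfkbiab averaged 69.5 ± 4.03 CPM in mutants and 73.4 ± 2.52 CPM in wild type, and its log2 change of -0.08 ± 0.04 (SE, adjusted p = 0.0966 in edgeR) did not pass.

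SOCS3 blocks JAK kinases bound to the shared receptor of the interleukin 6 family, and its gene is a STAT3 target. The zebrafish copy socs3a (ENSDARG00000025428, chromosome 3, 57423137 to 57425961, minus strand) had values of 23.6, 23.3 and 22 CPM in mutants, against 15.8, 15.5 and 15.2 CPM in wild type. The copy socs3b (ENSDARG00000026611, chromosome 12, 34258139 to 34277465, plus strand) had values of 21.9, 24.8 and 24.6 CPM in mutants, against 18.9, 18.6 and 18 CPM in wild type. For neither copy did the groups overlap. The log2 change was 0.57 ± 0.04 for socs3a (SE, adjusted p = 1.78e-09 in edgeR) and 0.36 ± 0.05 for socs3b (SE, adjusted p = 3.14e-06 in edgeR). The ratio of socs3a to socs3b was 0.972 ± 0.0958 in mutants and 0.839 ± 0.00695 in wild type, with no overlap (two-sided exact permutation p = 0.1, the smallest possible). Exons of nfkbiaa overlap 383 bases, and those of socs3b 126 bases, of genes on the opposite strand, and the counting used strand.

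Levels can be set against each other only per length of exon. The length used covers all annotated exons of a gene, which may be longer than the transcript made. It is 3082 bases for leap2 and 3351 for il1b, against 675 for hamp and 640 for saa, so the order may depend on the annotation. As CPM per kilobase, nfkbiaa (20.4 ± 1.47) and hamp (19.4 ± 1.58) led in mutants with ranges that overlap. They were followed by socs3a (11.9), socs3b (10.5), leap2 (7.92) and cxcl18b (3.12), each apart from the next. Below stood cxcl8a (1.52) and saa (1.18), which overlap, and then il1b (0.325). In wild type hamp (24.2 ± 0.645) led, apart from nfkbiaa (16.2 ± 0.38), and then came socs3b (8.17) and socs3a (8.01), which overlap. There leap2 (3.27) was followed by cxcl8a (1.23) and cxcl18b (1.21), which overlap, then by saa (0.503) and il1b (0.229). The ratio of cxcl18b to cxcl8a within a library, in which length cancels between groups, differed by log2 1.09 between mutants and wild type (two-sided exact permutation p = 0.1, the smallest possible, as was the value adjusted over the 3 gene ratios given here, which were chosen after their values were seen).

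The genes that mark the cells known to make these products differed between the groups as well. In RNA of whole larvae, fewer cells of a type and less RNA per cell cannot be told apart. Each marker count here and in the next paragraph stands beside the 34.2% of all tested genes called lower and the 34.7% called higher. Of 24 hepatocyte markers, 22 fell and 2 were not called, among them ttr (transthyretin) at 14.6 ± 0.824 CPM in mutants and 45.6 ± 0.782 CPM in wild type. The complement gene c9 fell by 1.32 ± 0.04 and the fetuin gene ahsg2 by 3.45 ± 0.10 (SE) on the log2 scale. The summed level of the 24 was 8393 to 8502 CPM in mutants and 14184 to 14964 CPM in wild type. Most of this sum was held by 2 apolipoprotein genes. apobb.1 averaged 2200 ± 108 CPM in mutants and 4382 ± 256 CPM in wild type, and apoa1b 2196 ± 73.1 CPM in mutants and 4029 ± 141 CPM in wild type. The sum therefore does not describe markers of lower level such as ttr, c9 and ahsg2. Of 17 enterocyte markers (21 were listed), 14 fell and 3 were not called. Their sum was 2030 to 2113 CPM in mutants and 3475 to 3666 CPM in wild type. The peptide transporter gene slc15a1b averaged 40.7 ± 1.57 CPM in mutants and 204 ± 7.08 CPM in wild type. The glucose transporter gene slc5a1 fell by 1.42 ± 0.03 and the anion exchanger gene slc26a3.2 by 1.36 ± 0.04 (SE) on the log2 scale.

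Of 14 neutrophil markers listed, 10 were matched to a gene ID, and mpx, cpa5, lect2l and cxcr1 were not. Among the 10 matched, 7 fell and 3 rose. The NADPH oxidase subunit gene ncf1 averaged 4.90 ± 0.337 CPM in mutants and 9.24 ± 0.920 CPM in wild type, and the matrix protease gene mmp9 21.6 ± 2.09 CPM in mutants and 12.1 ± 0.762 CPM in wild type. The granule protease gene npsn fell by 0.46 ± 0.05 (SE) on the log2 scale, and il6r is on this list too. The sum of the 10 was 72.6 to 75.8 CPM in mutants and 74.0 to 76.5 CPM in wild type. In mutants mmp9 and abcb9 held most of this sum, and both rose. abcb9 averaged 21.6 ± 0.895 CPM in mutants and 19.4 ± 1.19 CPM in wild type. The like sums therefore do not describe the 7 markers that fell. Of 18 macrophage markers listed, 14 were matched, and mpeg1.1, mpeg1.2, mfap4.1 and ccl34a.1 were not. Among these 14 macrophage markers 10 fell, 1 (apoeb) rose and 3 were not called. grn1 averaged 6.84 ± 0.222 CPM in mutants and 16.7 ± 0.562 CPM in wild type. cd74a, of antigen presentation, fell by 1.42 ± 0.13 and the scavenger receptor gene marco by 0.79 ± 0.08 (SE) on the log2 scale. apoeb, which other cells also express, held most of the macrophage sum, at 824 ± 16.4 CPM in mutants and 770 ± 15 CPM in wild type, and its call was lost without mutant replicate 2 (log2 0.08, adjusted p = 0.0591 in edgeR). Without apoeb the macrophage sum was 56.4 to 61.1 CPM in mutants and 88.3 to 89.7 CPM in wild type. Most of this difference lay in grn1 and lgals3bpb (log2 -0.89 ± 0.08 SE for the latter). The receptor gene csf1ra fell little (log2 -0.12 ± 0.04 SE), and irf8, spi1b and p2ry12 were those not called. The sum without apoeb therefore does not describe each macrophage marker. No marker of these 4 lists was at 0 in all libraries.

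Set against the hepatocyte markers, leap2 stood at 2.89 per 1000 CPM of marker sum in mutants and 0.687 in wild type, a 4.21-fold difference that is larger than that of leap2 alone. hamp stood at 1.55 in mutants and 1.11 in wild type per 1000 CPM of the same sum. It was thus lower as CPM and higher against this sum, most of which is apobb.1 and apoa1b. The log2 difference of saa, a product of liver and gut, was 1.99 per hepatocyte marker sum. Per neutrophil and macrophage marker sum, most of which is apoeb, the log2 difference was 1.32 for cxcl18b, 1.16 for saa, 0.46 for il1b and 0.23 for cxcl8a. With apoeb left out of that sum it was 1.65, 1.49, 0.80 and 0.56 for these genes in the same order. The sum without apoeb was itself lower in mutants, at 129.0 to 135.5 CPM, against 162.3 to 166.2 CPM in wild type. The larger differences therefore do not show a larger change in the genes themselves. Of the 18 ratios of 9 genes to 2 marker sums, 17 had the smallest two-sided exact permutation p possible (0.1, adjusted over the 18 to 0.106) and that of cxcl8a to the leukocyte sum had 0.4. The hepatocyte sum was itself lower in every mutant library, so a gene at an unchanged level separates the groups when divided by it. cxcl8a, whose CPM overlapped between the groups, did so at a log2 difference of 1.06. The p-values of the ratios to that sum thus do not show a change in the gene itself. Per the leukocyte sum the log2 difference of hamp was -0.36, and -0.02 where apoeb was left out of the sum. The part of cell composition in the changes of the 10 genes was not tested beyond these ratios.

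**Figure D3:**
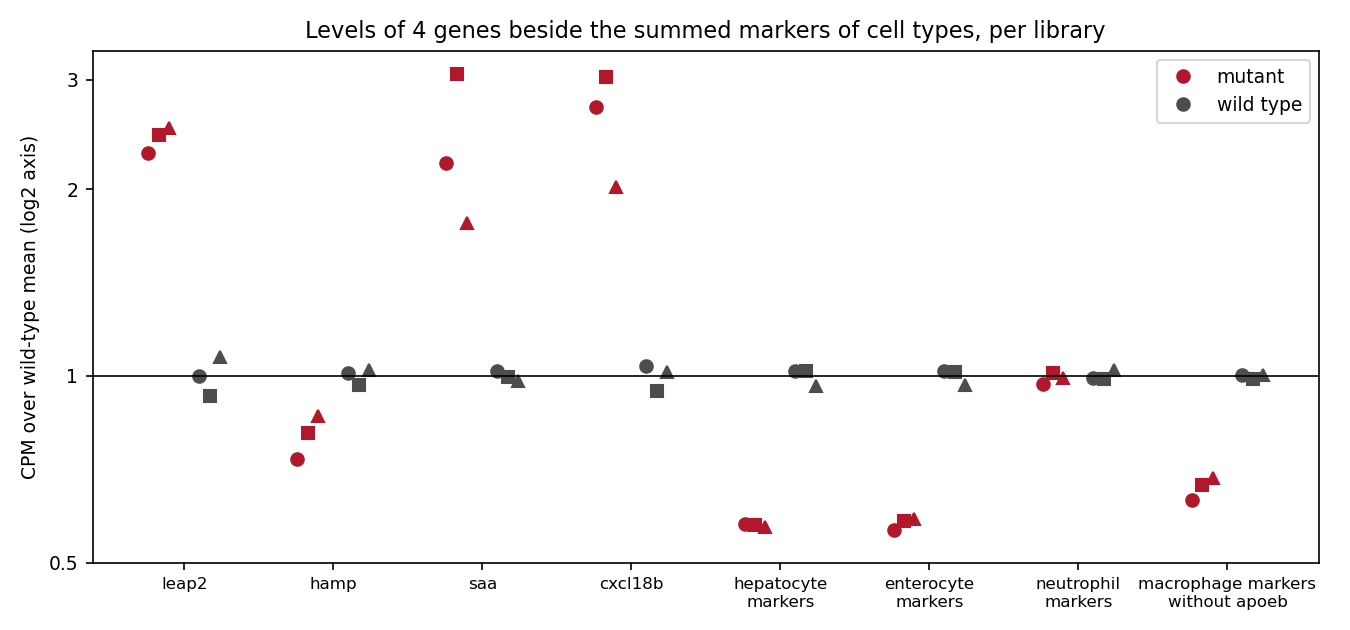
CPM of leap2, hamp, saa and cxcl18b, and summed CPM of 4 marker lists, in each library, divided by the wild-type mean on a log2 axis (mutant red, wild type grey, symbols for replicates 1, 2 and 3). leap2, saa and cxcl18b lie above 1 in all mutant libraries. The mutant sums of the hepatocyte and enterocyte markers, and of the macrophage markers with apoeb left out, lie below 1. Most of the difference in that macrophage sum lies in grn1 and lgals3bpb. The neutrophil sums of the 2 groups overlap, and in mutants mmp9 and abcb9, which rose, hold most of that sum.

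Pooled over 8 lists of related genes, the wider pathways did not move as a block, but single lists leaned in different directions. The list medians ran from log2 -0.52 (acute phase and antimicrobial proteins) to 0.15 (cytokines and their receptors), so the pooled counts do not describe each list. Over the 8 lists, without the 10 genes, 74 of 214 tested genes rose and 72 fell. Their median log2 change of 0.01 equals that of all tested genes, and each list count below stands beside the 34.7% of all tested genes called higher and the 34.2% called lower. Among 23 cytokine and cytokine receptor genes 12 rose and 6 fell (median log2 0.15). Of those that rose, il11a, il12a and il12ba passed the filter on low counts only through the mutant libraries, where they are high. This count, its median and the pooled counts carry that selection. tgfb1a, a transforming growth factor gene, averaged 27.4 ± 1.27 CPM in mutants and 22.3 ± 1.13 CPM in wild type (log2 0.30 ± 0.05 SE), and the receptor gene il11ra 13.8 ± 0.297 CPM in mutants and 10.6 ± 1.08 CPM in wild type. csf1a, a macrophage growth factor gene, had a log2 change of 0.42 ± 0.10 (SE), and il6r, which encodes the interleukin 6 receptor, one of -0.50 ± 0.06 (SE).

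Among 27 chemokine and chemokine receptor genes 10 rose and 8 fell (median log2 0.03), and 5 fell without mutant replicate 1 and likewise without mutant replicate 2. The chemokine gene ccl34a.4 measured 2.42, 2.84 and 2.67 CPM in mutants, against 0.547, 0.462 and 0.595 CPM in wild type. Its groups were far apart, with a log2 change of 2.30 ± 0.14 (SE, adjusted p = 8.89e-11 in edgeR). ackr3b, a scavenger receptor of Cxcl12, rose by log2 0.49 ± 0.03 (SE) and ccl25b by log2 0.45 ± 0.04 (SE). ccl19a.1, by contrast, averaged 2.11 ± 0.281 CPM in mutants and 5.69 ± 0.663 CPM in wild type (log2 -1.42 ± 0.11 SE, adjusted p = 5.21e-09 in edgeR).

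Upstream of these, among 31 NF-kB pathway genes 17 rose and 4 fell (median log2 0.14), with 11 rising in DESeq2. tab3 and map3k7, which encode parts of the TAK1 kinase complex, rose by log2 0.50 ± 0.04 and 0.28 ± 0.03 (SE), and nfkb2, an NF-kB subunit gene, by 0.29 ± 0.03 (SE). The kinase gene tbk1 averaged 63.1 ± 0.547 CPM in mutants and 76.3 ± 2.93 CPM in wild type. Among 28 Toll-like receptor and inflammasome genes 8 rose, 2 fell and 18 were not called (median log2 0.07). The inflammatory caspase gene caspb measured 46.1, 39.5 and 42.3 CPM in mutants, against 26, 25.9 and 25.1 CPM in wild type. Its groups did not overlap (log2 0.73 ± 0.05 SE, adjusted p = 2.91e-09 in edgeR). nod2, a sensor of bacterial cell wall fragments, rose by log2 0.56 ± 0.06 (SE) and pycard, the inflammasome adaptor ASC, by 0.31 ± 0.04 (SE), while the gasdermin gene gsdmeb fell by 0.66 ± 0.05 (SE) on the log2 scale.

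Among 32 JAK, STAT and SOCS genes 9 rose and 13 fell (median log2 -0.03). The phosphatase genes ptpn11b and ptpn6 fell by 0.51 ± 0.04 and 0.60 ± 0.06 (SE) on the log2 scale. socs1a, another inhibitor of JAK kinases, averaged 7.40 ± 0.441 CPM in mutants and 11.6 ± 0.981 CPM in wild type, the direction opposite to that of socs3a and socs3b. pias4a, an inhibitor of STAT proteins, rose by log2 0.25 ± 0.03 (SE).

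Most tested genes of the acute phase and antimicrobial list went the other way from saa. Of 32 acute phase and antimicrobial protein genes 19 fell and 7 rose (median log2 -0.52), and 1 gene of the list is also a hepatocyte marker and 4 are neutrophil markers. Of the called genes, hp passed the filter on low counts through the mutant libraries and defbl3 through the wild-type libraries. Each is high there, and the counts carry that selection. cp, which encodes the copper protein ceruloplasmin, averaged 59.3 ± 0.665 CPM in mutants and 129 ± 5.61 CPM in wild type (log2 -1.12 ± 0.03 SE, adjusted p = 8.60e-15 in edgeR). The pentraxin gene crp3 fell by 1.06 ± 0.05 (SE) on the log2 scale, with reads that may be shared among its close paralogues, and the complement gene cfb by 0.78 ± 0.04 (SE). Mutant over wild type was 0.459 for cp, 0.478 for crp3 and 0.581 for cfb, beside 0.575 for the summed hepatocyte markers. What part the hepatocyte fall has in this list was not tested. defbl1, a beta defensin-like gene, averaged 24.4 ± 0.420 CPM in mutants and 13.4 ± 0.147 CPM in wild type (log2 0.86 ± 0.04 SE, adjusted p = 3.18e-12 in edgeR), the direction of leap2.

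Around hepcidin, 28 genes of iron regulation counted 11 that rose and 10 that fell (median log2 0.05), and tfa, which fell, is also a hepatocyte marker. smad5 and id1, a carrier and a target of the BMP signal that induces hepcidin, rose by log2 0.58 ± 0.04 and 0.45 ± 0.03 (SE). Of other genes of this signal, smad1 rose and bmpr2a fell. All are read in whole larvae, so these values do not show the signal in hepatocytes. hamp itself was lower as CPM and higher against the hepatocyte marker sum. The transferrin receptor gene tfr1b averaged 48.8 ± 1.53 CPM in mutants and 36.2 ± 0.610 CPM in wild type, and the ferritin gene fth1a 548 ± 11.9 CPM in mutants and 681 ± 19.4 CPM in wild type. fth1a is among the nearest named neighbours of saa on the chromosome of pdcd7. What part a shared chromosome segment has in its fall was not tested. Glucocorticoids hold down many inflammatory genes, but whether they have a part in the changes of the 10 genes was not tested. Of 13 genes of the glucocorticoid response, the receptor gene nr3c1 included, 10 fell and 3 were not called. tat, which fell, is also on the list of hepatocyte markers. Among them fkbp5 averaged 268 ± 6.43 CPM in mutants and 415 ± 14.4 CPM in wild type (log2 -0.63 ± 0.03 SE), per1a fell by 0.56 ± 0.03 (SE) and klf9 by 0.42 ± 0.03 (SE) on the log2 scale.

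**Figure D4:**
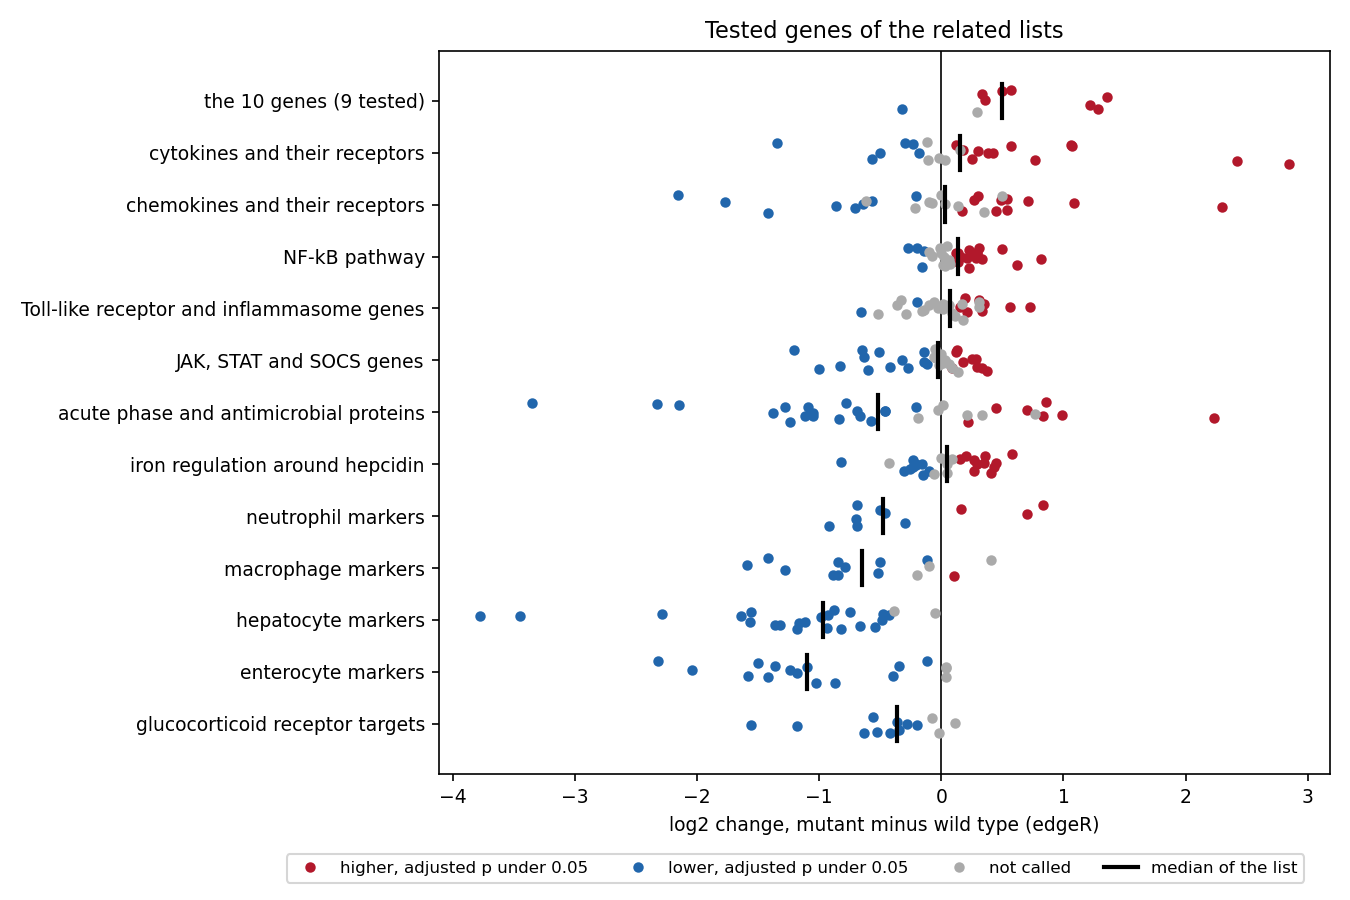
Log2 change, mutant minus wild type, of each tested gene of the 10 genes, the 8 related lists and the 4 marker lists, coloured by call, with the list median as a vertical bar. The medians are 0.50 for the 10 genes, -0.52 for the acute phase list, -0.97 for the hepatocyte markers and -1.10 for the enterocyte markers.

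For each tested gene, the most similar profile over the 6 libraries was sought among 17133 genes outside these lists, as the smallest root mean square difference of centred log2 CPM. The closest match was DCK for socs3a (0.0133). UFSP1 was closest to leap2 (0.0464), RASGRP2 to hamp (0.0251, a symbol on 2 IDs), NDUFAF5 to nfkbiaa (0.0207) and fbxo6.1 to socs3b (0.0241). The matches were looser for the genes with low counts, with CENPX for il1b (0.0561), mcph1 for cxcl18b (0.128), GSX2 for cxcl8a (0.143) and DAO for saa (0.144, a symbol on 3 IDs). The 6 libraries fall into 2 groups, and each matched gene differs between them in the same direction as the gene it matches.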

How the data were processed

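For each library the authors deposited a table of raw, unnormalized counts. Read pairs were counted with featureCounts over exons of Ensembl release 115 gene models (GRCz11), with strand setting 2, per the file headers. Tools in the submitters' processing notes are STAR 2.7.11, Trimmomatic 0.38 and Subread 1.6.3. Symbols matched 29201 of the gene IDs (89.8%), and 304 of 337 list entries. Counts were tested with edgeR 4.0.16 (R 4.3.3): filterByExpr, TMM, two-sided quasi-likelihood F-test, Benjamini-Hochberg over all tested genes. The robust setting of the fit was chosen after a fit without it had been seen, to match an earlier analysis of these data. SE is the log2 change over the root of F. Alternatives used limma 3.58.1 and DESeq2 1.42.0. The test was tried on simulated data with changes planted in a small share of genes and the same dispersion for all. That does not cover data such as these, in which 68.9% of tested genes were called. Members and lists were chosen with earlier results of these data known. Named list genes are the called ones of lowest adjusted p, 3 in the commoner direction and 1 in the other, at 1 CPM or more in the higher group; nfkbiab was added after its values were seen. Log2 CPM used a prior count of 2. No sequences were used here.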

Additional observations from a re-analysis of the deposited data

How the results depend on the processing

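Of the 10 genes, 7 remained higher and 1 lower with DESeq2 size factors, upper quartile scaling, library size only, no filter, DESeq2 and limma-voom. The filter of 1 CPM in 3 libraries left 6 higher, since it removed saa. It also removed cxcl8a, which was not called. il1b passed this filter only through the mutant libraries, where it is high, so its call there carries that selection. Leaving out each library in turn gave 6 to 8 higher. The log2 change ranged from 1.23 to 1.52 for cxcl18b, 0.98 to 1.40 for saa, 1.22 to 1.35 for leap2, -0.38 to -0.24 for hamp, 0.37 to 0.59 for il1b and 0.10 to 0.53 for cxcl8a. Chosen after seeing the data, the test against a 1.5-fold change called 1400 genes higher and 1764 lower, 3 and 0 of the 10 genes (0 lower also at an unadjusted p under 0.05 in edgeR), and 8 and 22 of the related lists. A fit without robust shrinkage, the first one run, called 8358 higher and 8265 lower where the robust fit called 8402 and 8294, with 7 higher and 1 lower among the 10 genes. By its adjusted p, the naming rule gives 37 of the 45 picks used here, which count il6r under 2 lists. With the replicate number as a block, 8292 genes were higher and 8168 lower, and 7 and 1 of the 10. The labels do not say that same-numbered libraries are paired. Their deviations correlated at 0.021, -0.041 and -0.002, and those of different-numbered libraries at -0.064 to 0.07. With 3 libraries per group these values cannot show whether a clutch or handling was shared. Higher cytokine genes numbered 7 and not 12, and lower chemokine genes 5 and not 8, under the 1 CPM filter. Lower NF-kB genes numbered 2 and not 4 with library size only. Of the glucocorticoid targets 1 was higher under upper quartile scaling, with library size only and without mutant replicate 3. The cause was not tested.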

Other observations

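The genes below come from the related lists, were not named by the rule, and were chosen after their values were seen, with rises first and falls after them. il12a, a subunit gene of interleukin 12, measured 0.850, 0.549 and 0.979 CPM in mutants, against 0.164, 0.103 and 0.0633 CPM in wild type. The groups did not overlap (log2 2.85 ± 0.33 SE, adjusted p = 5.29e-07 in edgeR). il11a, an interleukin 6 family cytokine gene, measured 0.322, 0.647 and 0.378 CPM in mutants, against 0.0957, 0.0769 and 0.0759 CPM in wild type (log2 2.42 ± 0.37 SE, adjusted p = 1.50e-05 in edgeR). In wild type both il12a and il11a rest on few counts, since 3 counts give 0.0380 to 0.0410 CPM there. The size of both changes is therefore uncertain. Both genes passed the filter on low counts through the mutant libraries, where they are high. Their adjusted p-values carry that selection and are not separate support for the rise. irg1l, a relative of the itaconate-making enzyme, measured 12.2, 14.1 and 11.2 CPM in mutants, against 3.16, 2.85 and 2.01 CPM in wild type. All mutant libraries lay above all wild-type libraries (log2 2.23 ± 0.17 SE, adjusted p = 3.39e-05 in edgeR).

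cxcl8b.1, a second interleukin 8-like gene, measured 1.67, 2.15 and 2.87 CPM in mutants, against 1.09, 1.09 and 0.974 CPM in wild type (log2 1.09 ± 0.18 SE, adjusted p = 1.15e-04 in edgeR). Its groups did not overlap, unlike those of cxcl8a. tnfb, the other tumour necrosis factor gene, averaged 0.946 ± 0.195 CPM in mutants and 0.557 ± 0.0418 CPM in wild type (log2 0.77 ± 0.19 SE, adjusted p = 0.00174 in edgeR). The granulocyte growth factor genes csf3a and csf3b rose by log2 0.57 ± 0.17 and 1.07 ± 0.25 (SE). stat3 averaged 63.6 ± 4.23 CPM in mutants and 50.6 ± 0.722 CPM in wild type (log2 0.33 ± 0.04 SE, adjusted p = 2.76e-06 in edgeR).

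The pentraxin gene crp5 measured 7.34, 8.75 and 6.33 CPM in mutants, against 83.4, 80.8 and 63.3 CPM in wild type (log2 -3.35 ± 0.19 SE, adjusted p = 1.01e-04 in edgeR). It is 1 of a family of close copies, so its counts are uncertain. Of the genes next to hepcidin in iron control, the inducer genes bmp6 and hjv rose by log2 0.36 ± 0.08 and 0.27 ± 0.06 (SE), and slc40a1, which encodes ferroportin, averaged 78.6 ± 2.58 CPM in mutants and 92.2 ± 2.87 CPM in wild type (log2 -0.23 ± 0.03 SE, adjusted p = 8.95e-06 in edgeR).

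Falls of like size stood in the same lists. The chemokine receptor gene ccr9b measured 0.386, 0.232 and 0.400 CPM in mutants, against 1.24, 1.62 and 1.72 CPM in wild type (log2 -2.16 ± 0.20 SE, adjusted p = 3.55e-08 in edgeR). The chemokine gene cxcl19 averaged 0.177 ± 0.0254 CPM in mutants and 0.605 ± 0.0583 CPM in wild type (log2 -1.77 ± 0.25 SE, adjusted p = 4.78e-06 in edgeR). osmr, a receptor gene of the interleukin 6 family, averaged 0.218 ± 0.0453 CPM in mutants and 0.556 ± 0.0552 CPM in wild type (log2 -1.35 ± 0.25 SE, adjusted p = 9.30e-05 in edgeR). In none of these 3 genes did the groups overlap.

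pglyrp6, a peptidoglycan recognition gene, averaged 0.331 ± 0.0916 CPM in mutants and 1.47 ± 0.0442 CPM in wild type (log2 -2.15 ± 0.19 SE, adjusted p = 1.37e-08 in edgeR). The complement gene c3a.2 fell by 1.38 ± 0.10 (SE) on the log2 scale. defbl3, a defensin-like gene, averaged 0.0480 ± 0.0116 CPM in mutants, close to what 3 counts give, and 0.247 ± 0.0758 CPM in wild type. It passed the filter on low counts through the wild-type libraries, where it is high. Against the rise of stat3, stat1b averaged 23.5 ± 9.13 CPM in mutants and 54.4 ± 8.59 CPM in wild type (log2 -1.21 ± 0.34 SE, adjusted p = 0.0346 in edgeR). stat2 averaged 63.8 ± 10.5 CPM in mutants and 114 ± 13.8 CPM in wild type (log2 -0.83 ± 0.17 SE, adjusted p = 0.0118 in edgeR).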
